A study of Mus musculus with 4 samples.

Results

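The 9 genes described here encode G protein-coupled receptors through which myeloid cells sense chemoattractants: Cx3cr1, Ccr1, Ccr2 and Cxcr4 for chemokines, C5ar1 and C3ar1 for complement fragments, Fpr1 and Fpr2 for formylated peptides, and Ptafr for platelet-activating factor. They were taken by name, with earlier results of these data known, as 9 of the 21887 protein-coding genes that RefSeq places on chromosomes 1 to 19, X and Y of GRCm38.p6 (mm10). The data are ChIP-seq of MED1, a Mediator subunit, in RAW 264.7 cells, an established mouse line of macrophage-like tumour cells. The untreated group has 2 libraries, and the other group has 2 libraries of cells given LPS, a Toll-like receptor 4 agonist, for 2 h. The dose of LPS is 10 ng/mL in the sample labels and 100 ng/mL in the treatment protocol, so it is uncertain. No genetic change is given for either group. A single list of intervals was deposited for the series of 4 libraries, without heights, p-values or the name of any library, and which of them contributed to it is not stated. Untreated and LPS-treated cells could therefore not be compared at any of these genes, the depth is unknown, and no value below has a spread over replicates.

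Chemoattractant receptors couple mainly to Gi proteins, whose released beta-gamma subunits activate phosphoinositide 3-kinase gamma and phospholipase C beta and set off migration toward the source of the ligand. Monocytes leave the bone marrow and enter inflamed tissue through such receptors, and resident macrophages use them to find damaged cells and bacteria. Mediator is the complex that carries signals from transcription factors bound at enhancers to RNA polymerase II at promoters, and long stretches of MED1 occupancy are a known feature of enhancer clusters near lineage genes.

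Abutting intervals of the list were joined into regions, 22570 in all. A region was counted for a gene when it overlapped the gene or had its midpoint no more than 50 kb from one of the gene's ends. Such a count can include regions at neighbouring genes. As a check of the cell type, 8 of 8 macrophage marker genes, among them Spi1, Csf1r and Lyz2, were overlapped by a region. Of all protein-coding genes, 50.6% were. Of 15 markers of B cells, T cells, neutrophils and hepatocytes, 0 were overlapped, although 10 of them had a region within the 50 kb window. Such a region was found for 70.6% of all protein-coding genes. By number of regions the marker lists overlapped: the neutrophil marker Elane had 9, and the macrophage markers had 4 to 12. Expression was not measured here.

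All 9 receptor genes had at least 1 region, as did 70.6% of all protein-coding genes. The median was 6 regions per receptor gene (lowest 1, highest 15), against 2 for all protein-coding genes (quartiles 0 and 5). For 7 of the 9 the count was 5 or more, which 25.2% of all protein-coding genes reached. The regions counted for a receptor gene added up to a median of 30.7 kb of sequence (lowest 2.0, highest 67.9 kb), against 4.2 kb for all genes. Fpr1 and Fpr2 shared all 6 of their regions, so 1 observation enters these medians and counts as 2 genes. Both medians equal the value of this pair. A region overlapped the gene itself for 7 of the 9, against 50.6% of all genes and 53.2% of the 7436 genes whose length falls within that of the receptors (4101 to 19614 bp). Ccr2 and Fpr2 were the exceptions. When regions made of 1 interval were left out, 4 of the 9 remained overlapped, Ccr1, Cxcr4 and Fpr1 being lost, against 43.1% of all genes. No test was made over these 9 genes, since genes within 1 list of intervals are not replicates of a condition.

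**Figure D1:**
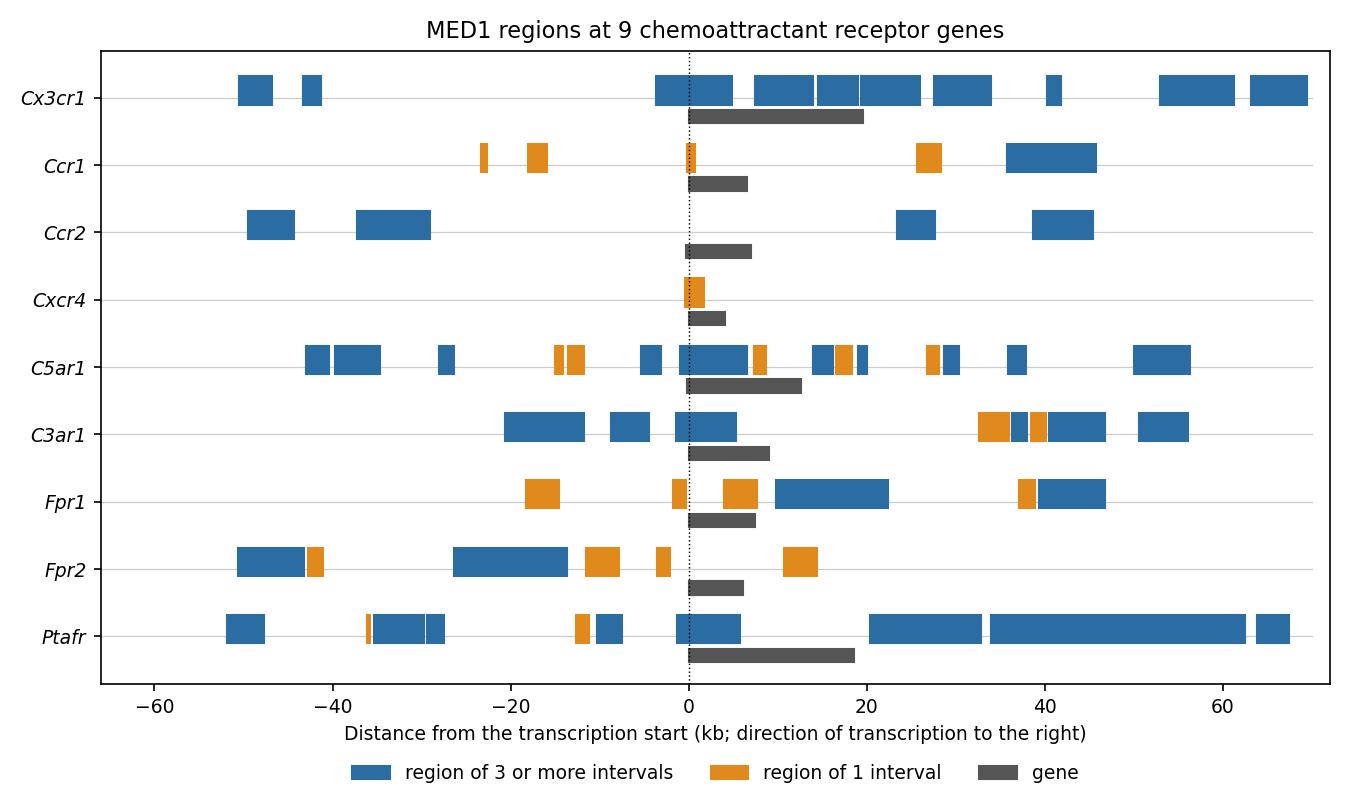
Regions at each receptor gene, drawn by distance from its RefSeq transcription start in kb, with transcription running to the right; blue boxes are regions of 3 or more intervals, orange boxes regions of 1 interval, and grey boxes the genes. Cx3cr1 is covered by 5 regions, Cxcr4 has a lone region over its start, and no region touches Ccr2 or Fpr2.

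**Figure D2:**
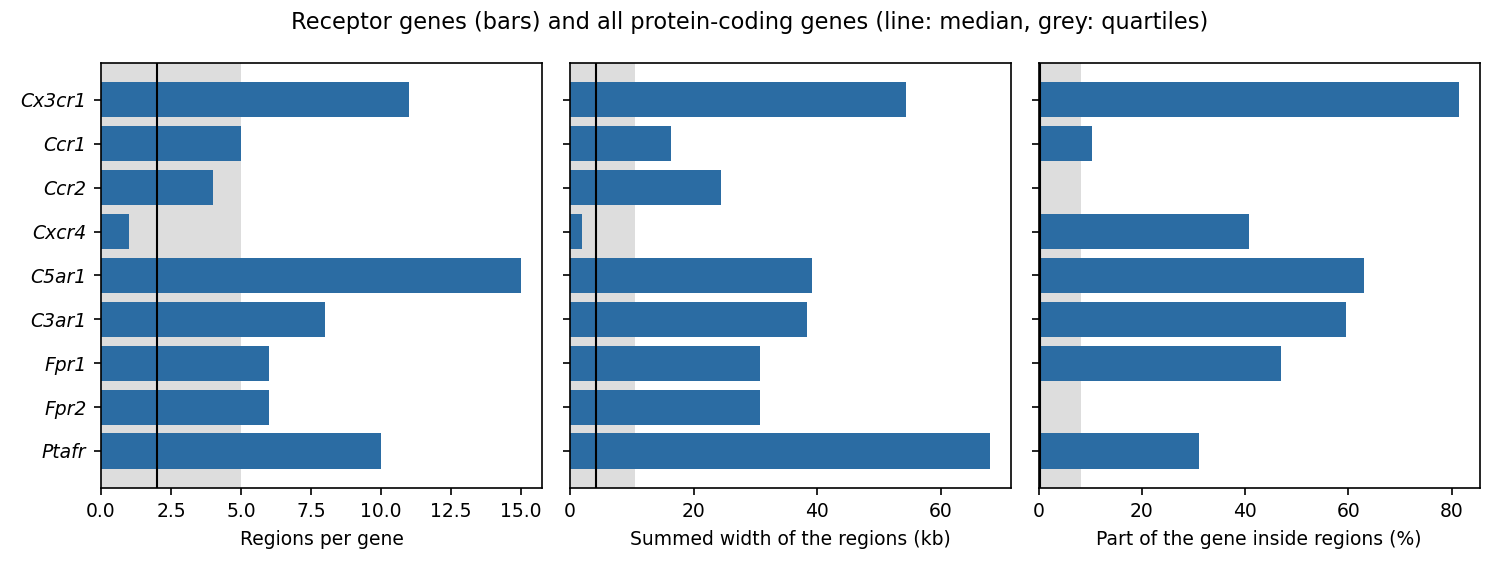
Regions per gene, summed width of these regions in kb, and the percentage of the gene lying inside regions, for the 9 receptor genes (bars), with the median (line) and quartiles (grey) of all 21887 protein-coding genes. C5ar1 has the most regions (15), Ptafr the largest summed width (67.9 kb) and Cx3cr1 the most of its length inside regions (81.4%).

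The receptors differed in whether a region covered their start, and the promoter sequences of 5 of them are shown. They are 3 of the 6 whose start lay inside a region (Ccr1, Cxcr4 and C3ar1), and the neighbours Fpr1 and Fpr2, whose starts did not. Each is the 250 bases before the RefSeq start (GRCm38.p6), written 5′ to 3′ along the gene's strand. All 9 receptor genes had a sequence in this set. Capitals mark matches, on either strand, to 8 motifs of macrophage or general promoter factors: the PU.1 core (GAGGAA), AP-1 (TGANTCA), C/EBP (TTGCNNAA), NF-kB (GGGA, any 4 bases, then CC), IRF (GAAA, any 2 bases, then GAAA), STAT (TTCNNNGAA), the TATA box (TATAAA) and CRE (TGACGTCA). Ccr1 lies at chr9:123968693-123968942 on the minus strand, Cxcr4 at chr1:128592300-128592549 on the minus strand, C3ar1 at chr6:122856158-122856407 on the minus strand, Fpr1 at chr17:17883940-17884189 on the minus strand and Fpr2 at chr17:17887574-17887823 on the plus strand.
Ccr1: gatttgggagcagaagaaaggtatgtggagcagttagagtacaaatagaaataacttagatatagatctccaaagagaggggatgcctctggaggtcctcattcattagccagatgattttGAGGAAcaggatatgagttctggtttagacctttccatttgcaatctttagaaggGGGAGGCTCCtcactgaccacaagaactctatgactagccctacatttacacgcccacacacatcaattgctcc
Cxcr4: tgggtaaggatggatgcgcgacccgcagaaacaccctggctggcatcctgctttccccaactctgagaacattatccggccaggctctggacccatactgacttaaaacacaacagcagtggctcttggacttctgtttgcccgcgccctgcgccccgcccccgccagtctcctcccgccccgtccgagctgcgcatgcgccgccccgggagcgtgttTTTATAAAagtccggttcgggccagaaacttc
C3ar1: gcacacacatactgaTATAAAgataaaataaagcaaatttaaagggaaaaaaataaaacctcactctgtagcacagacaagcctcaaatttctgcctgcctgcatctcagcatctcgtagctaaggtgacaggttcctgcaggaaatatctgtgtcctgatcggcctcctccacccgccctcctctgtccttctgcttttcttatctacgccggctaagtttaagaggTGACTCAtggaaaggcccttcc
Fpr1: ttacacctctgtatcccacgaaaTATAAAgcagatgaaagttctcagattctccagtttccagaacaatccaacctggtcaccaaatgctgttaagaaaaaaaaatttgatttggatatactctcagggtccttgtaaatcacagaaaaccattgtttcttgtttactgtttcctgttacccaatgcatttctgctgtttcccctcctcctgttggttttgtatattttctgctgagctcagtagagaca
Fpr2: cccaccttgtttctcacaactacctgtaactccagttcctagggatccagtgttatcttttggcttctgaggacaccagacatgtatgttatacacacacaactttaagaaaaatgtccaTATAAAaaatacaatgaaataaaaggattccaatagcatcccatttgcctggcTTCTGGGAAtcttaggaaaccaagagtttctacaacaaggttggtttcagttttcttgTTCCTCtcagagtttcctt

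In the Ccr1 promoter the capitals are a PU.1 core that begins 129 bases before the start and an NF-kB match that begins 74 bases before it. The region at Ccr1 covered the 144 of these 250 bases that lie next to the start, so both matches fell inside it. In C3ar1 an AP-1 match (TGACTCA) began 22 bases before the start and a TATAAA 235 bases before it, and the region covered all 250 bases. In Cxcr4 the TATA box was matched on both strands by overlapping letters, beginning 32 and 30 bases before the start. Fpr1 held a TATAAA that began 227 bases before its start. Fpr2 held a TATAAA, a STAT match 77 bases and a PU.1 core 19 bases before the start, in sequence that no region covered. Among the promoters not shown, those of Cx3cr1, C5ar1 and Ccr2 held 0 matches to the 8 motifs. The starts of Cx3cr1 and C5ar1 lay inside a region. Ptafr, whose start also lay inside a region, held a PU.1 core that began 242 bases before the start. The promoters shown of Ccr1, Cxcr4 and C3ar1 held 2 matches each, more than those of the covered starts not shown. Over the 300 bases that also take in the first 50 of the transcript, the PU.1 core was found in 3 of the 9 promoters (Ccr1, Fpr2 and Ptafr) and in 27.4% of all 21263 promoters. AP-1 was found in 1 of 9 (6.99% of all), NF-kB in 1 (23%), STAT in 1 (7.69%) and TATAAA in 4 (12.6%). C/EBP (10.2% of all), IRF (3.35%) and CRE (2.23%) matched 0 of the 9. The shares of all promoters were not matched for base composition. Median GC content over all promoters was 56.3%. In the 4 with TATAAA it was 39.3% (Fpr2), 40.0% (Fpr1), 46.0% (C3ar1) and 59.3% (Cxcr4). A match is a description of the letters, not a binding site.

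A region's midpoint lay within 1 kb of the transcription start for 3 of the 9 receptors (Cx3cr1, Ccr1 and Cxcr4), against 39.3% of the 17492 genes with a start in the promoter table. Wide regions can cover a start from a distant midpoint, and the start base itself lay inside a region for 6 of the 9, the added ones being C5ar1, C3ar1 and Ptafr, against 42.8% of these genes. The promoters of the receptors are mostly poor in CpG. The ratio of observed to expected CpG in the 300 bases was between 0.07 (Ccr1) and 0.32 (C3ar1) in 8 of them and 0.77 in Cxcr4, and its median over all promoters was 0.57. Among the 6822 genes with a single listed start and a ratio under 0.5, 10.8% had the start inside a region, and 5 of the 8 CpG-poor receptors did. Among the 7909 genes with a ratio of 0.5 or more, 65.9% had it inside, as did Cxcr4, the 1 receptor of that kind. The split by CpG was chosen after the values of the receptors were seen.

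Cx3cr1 encodes the receptor for fractalkine and is a marker of patrolling monocytes and microglia. It lies on the minus strand of chromosome 9 (120048683 to 120068296) and had 11 regions, a number that 1.3% of all protein-coding genes reached, with a summed width of 54.4 kb. Of these, 5 overlapped the gene and put 81.4% of its length inside regions, more than in any other of the 9. The region over the start was 8544 bp wide (120063393 to 120071936), had 5 intervals and ran from 3.64 kb upstream to 4.90 kb downstream of the start. The next 4, of 4059, 2271, 4422 and 6650 bp, followed one another through the gene and past its 3′ end. For 6 of the 11 regions Cx3cr1 was the nearest gene, and others lay near Xirp1, an actin-binding protein gene, downstream and Slc25a38, a mitochondrial glycine carrier gene, upstream. With regions at most 12500 bp apart stitched together, the gene fell in a cluster of 11 regions, of which 9 were among those counted for Cx3cr1. The cluster covered 66.9 kb and ranked 11 of 13554 by covered length. None of the regions counted for Cx3cr1 consisted of 1 interval.

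Ccr1, a receptor for Ccl3 and Ccl5, lies on chromosome 9 (123962126 to 123968692, minus strand) and had 5 regions, of which 4 were of 1 interval. The region over its start was narrow, at 827 bp (123968010 to 123968836), and left 10.4% of the gene covered. The widest region counted for it was 10030 bp with 3 intervals, and its midpoint lay 34.2 kb past the 3′ end in sequence without a protein-coding gene. The summed width was 16.3 kb. Ccr1 was the nearest gene for 3 of the 5.

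Ccr2, the Ccl2 receptor that brings classical monocytes out of the bone marrow, lies 133.5 kb from Ccr1 by their starts (chromosome 9, 124101918 to 124109140, plus strand). It had 4 regions, none overlapping the gene, and all of 3 or 5 intervals. On the upstream side they were 5149 bp and 8248 bp wide, with midpoints 46.9 and 33.2 kb before the start, and on the downstream side 4319 bp and 6709 bp wide, with midpoints 25.6 and 42.0 kb after it. The gene sits in a stretch of 52.4 kb without a region, and with a window of 10 kb it had none. Ccr2 was the nearest gene only for the 8248 bp region. The 4 regions added up to 24.4 kb, more than the 5 of Ccr1.

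Ccr1 and Ccr2 belong to a tandem cluster of chemokine receptor genes. Of the others in it, Ccr3 had 7 regions, of which 5 were also counted for Ccr1 or Ccr2. Ccr1l1 and Ccr9 had 6 regions each, Cxcr6 had 5 and Xcr1 had 4 with 72.5% of the gene inside regions. Cxcr6 lies inside Fyco1, which is not on the receptor lists and had 7 regions with a summed width of 57.0 kb. A region of 19346 bp that overlapped Xcr1 also overlapped Fyco1, so regions here cannot be credited to the receptor genes alone. Xcr1, a receptor known from cross-presenting dendritic cells, had its start inside a region, as did Ccr9 and Ccr3. Between Ccr1 and Ccr3 the regions were all of 1 interval, and the 4 counted for Ccr2 were all of several.

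**Figure D3:**
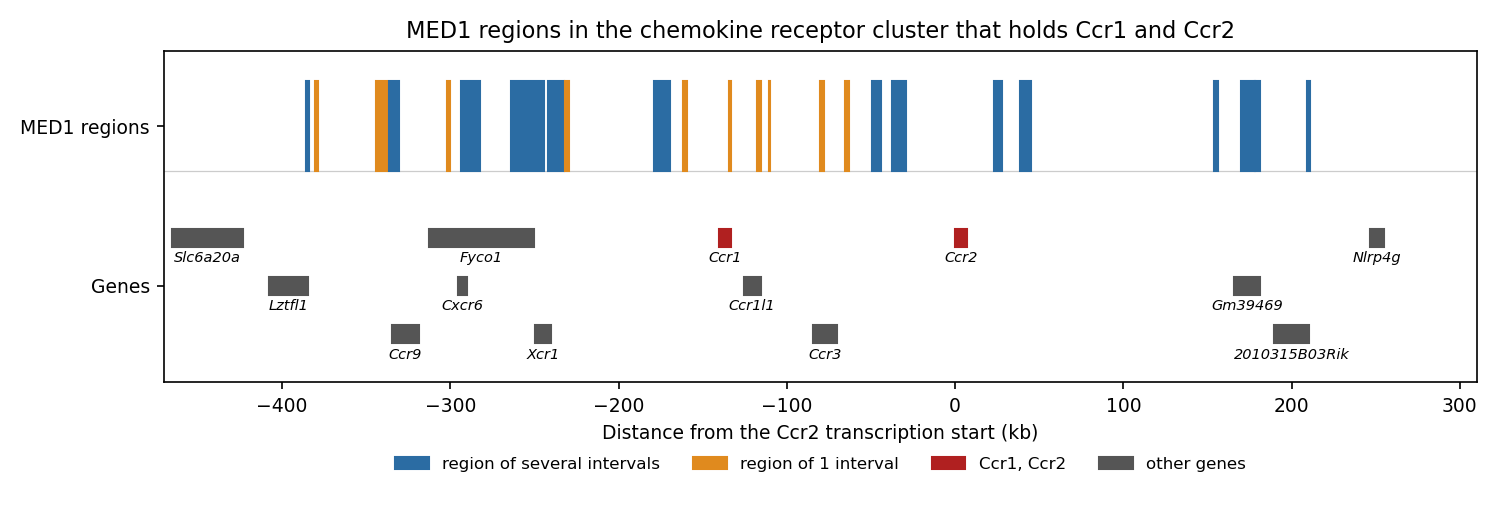
MED1 regions (top) and the protein-coding genes reported (bottom) across the chemokine receptor cluster, by distance from the Ccr2 start in kb; blue marks regions of several intervals, orange regions of 1 interval, and red the genes Ccr1 and Ccr2. Ccr2 lies in a gap of 52.4 kb, and Ccr1 has a region of 827 bp at its start.

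Cxcr4, the receptor for Cxcl12 that retains cells in the bone marrow, had a single region (chromosome 1, gene at 128588199 to 128592299, minus strand). The region was of 1 interval and 2037 bp wide (128590629 to 128592665), covered the start and 40.7% of this short gene, and reached 0.366 kb upstream. It was the only region in a stretch of 286.3 kb, and 70.6% of all protein-coding genes had at least as many regions as Cxcr4. Its start was the only CpG-rich one of the 9. The summed width of 2.0 kb was below the median of all genes, while those of the other 8 receptors lay above the upper quartile of 10.5 kb.

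The complement receptor genes both had their start inside a wide region. C5ar1 encodes the receptor for the anaphylatoxin C5a, a strong neutrophil and macrophage attractant, and lies on chromosome 7 (16246743 to 16259540, minus strand). Its 15 regions were the most among the 9, and 0.1% of all protein-coding genes had as many. Those over the gene were of 7446 bp with 5 intervals (16252827 to 16260272, across the start) and of 1351 bp with 1 interval, and together they held 63.0% of the gene. C5ar1 was the nearest gene for 3 of the 15. Its neighbour C5ar2, which encodes a second C5a receptor, had 13 regions, and all 13 were also counted for C5ar1. Other regions of the 15 lay at Dhx34, Ccdc9 and Inafm1. All 15 fell into 1 cluster of 17 regions that covered 51.2 kb over a span of 124.0 kb and ranked 35 of 13554.

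C3ar1 encodes the receptor for C3a and lies on chromosome 6 (122847140 to 122856157, minus strand). It had 8 regions with a summed width of 38.4 kb, close to the 39.2 kb of C5ar1 with its 15. A region of 6792 bp with 3 intervals (122850787 to 122857578) covered the start and 59.6% of the gene. Upstream of it lay regions of 4270 bp and 8969 bp, the second overlapping Necap1. These 3 formed a cluster covering 20031 bp, ranked 352. The other 5, with midpoints 34.3 to 53.3 kb downstream of the start, lay nearest to Foxj2 or to the glucose transporter gene Slc2a3.

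The formyl peptide receptor genes Fpr1 and Fpr2 lie head to head on chromosome 17 (Fpr1 at 17876471 to 17883939 on the minus strand, Fpr2 at 17887824 to 17893952 on the plus strand), with starts 3.9 kb apart. Fpr1 binds formylated bacterial peptides with high affinity, and Fpr2 also binds lipid and protein ligands such as annexin A1. Both genes had the same 6 regions, 30.7 kb in all, so their counts are 1 observation. A region of 1463 bp with 1 interval (17884255 to 17885717) lay between the starts. Its near edge was 316 bp from the Fpr1 start and 2107 bp from the Fpr2 start, so neither of the promoters printed above reached into it. A region of 3678 bp (17876297 to 17879974), also of 1 interval, covered the 3′ part of Fpr1, and 46.9% of that gene lay inside it. The widest was of 12629 bp and 3 intervals, with its midpoint 8.66 kb past the 3′ end of Fpr1. Its middle interval made up 9.4% of its width, the smallest such share among the regions of 3 intervals counted for the 9 receptors. No region touched Fpr2, and the closest beyond it, of 3782 bp, had its midpoint 6.42 kb past the 3′ end. These 2 genes had regions while the related genes Fpr3, Fpr-rs3, Fpr-rs4, Fpr-rs6 and Fpr-rs7 had 0 each, with the closest midpoint 70.1 kb (Fpr3) to 826.3 kb (Fpr-rs7) away. How reads from closely related gene copies, in this family and in the chemokine receptor cluster, were assigned is not stated, so counts at such genes are uncertain.

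Ptafr encodes the receptor for platelet-activating factor, a phospholipid mediator released by activated leukocytes. It lies on chromosome 4 (132564067 to 132582683, plus strand) and had 10 regions, with the largest summed width of the 9 at 67.9 kb, which 99.9% of all protein-coding genes stayed below. A region of 7148 bp with 3 intervals (132562704 to 132569851) covered the start and 31.1% of the gene. Downstream of the gene lay a region of 12371 bp, nearest to Ptafr, and then one of 28493 bp with 14 intervals (132598006 to 132626498), the 23rd widest of all 22570 regions. That region overlapped no protein-coding gene, and Eya3, a phosphatase and transcriptional co-activator gene, was its nearest at 26.8 kb from the midpoint. The stitched cluster that holds both covered 49.6 kb and ranked 39, but it did not reach Ptafr itself. Upstream regions lay at Dnajc8, Atpif1 and near Sesn2.

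A cluster among the 677 largest (5%) overlapped 4 of the 9 receptor genes (Cx3cr1, C5ar1, C3ar1 and Fpr1), against 5.46% of all protein-coding genes. When clusters were ranked by their number of regions instead of covered length, 2 of the 9 (Cx3cr1 and C5ar1) were overlapped, against 6.08% of all. At least 25% of the gene lay inside regions for 6 of the 9, against 9.92% of all. These genes were Cx3cr1, C5ar1, C3ar1, Fpr1, Cxcr4 and Ptafr. Gene length was not matched in this comparison, and the receptor genes are 4101 to 19614 bp long. In order of summed width the receptors were Ptafr, Cx3cr1, C5ar1, C3ar1, Fpr1 with Fpr2, Ccr2, Ccr1 and Cxcr4. In order of the number of regions, C5ar1 led, followed by Cx3cr1, Ptafr, C3ar1, the Fpr pair, Ccr1, Ccr2 and Cxcr4. Cx3cr1 led C5ar1 when only regions at or above the median width were counted (10 against 7), when regions of 1 interval were left out (11 against 10) and when a region was counted only for its nearest gene (6 against 3). Without replicates it cannot be said which neighbours in these orders differ.

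The 9 receptors had 60 distinct regions between them. Their median width was 3590 bp, against 1948 bp for all regions, and 42 of the 60 were at or above the latter. A single interval made up 18 of them (30.0%, against 35.3% of all regions) and 3 intervals 37 (61.7%, against 60.4%). In 28 of these 37 (75.7%) the middle interval was the longest, against 92.4% of all regions of 3 intervals. What the division into intervals stands for is not given in the sources used here. A member of the 9 was the nearest gene for 22 of the 60, 12 overlapped a member, and 27 overlapped no protein-coding gene. The share of all regions that overlap no protein-coding gene is not given here, so the 27 cannot be called many or few. At the limit of the 50 kb window, the farthest midpoint counted lay 49.8 kb from Ptafr and the closest one left out 50.1 kb from Fpr1.

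Genes related to the receptors, taken from lists chosen with earlier results of these data known, varied in the same measures. Of 18 other chemokine receptors, 15 had a region and 9 were overlapped by one, against 70.6% and 50.6% of all protein-coding genes. Their median was 3 regions. Ccr8 had 8, of which 7 were also counted for its neighbour Cx3cr1, and no region overlapped Ccr8 itself. After Ccr3 with 7, Ccr6, Ccr9 and Cxcr5 had 6 each. Ackr1, Ackr3 and Ccr4 had 0. Of 11 other complement, formyl peptide and lipid mediator receptors, 6 had a region, and their median was 2. After C5ar2, the neighbouring leukotriene B4 receptor genes Ltb4r1 and Ltb4r2 had 7 each. Their summed width was the same, at 13.1 kb, so these may be the same regions.

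Of 11 ligand genes, 10 had a region and 6 were overlapped by one, against 70.6% and 50.6% of all protein-coding genes. Their median was 5. The neighbouring monocyte chemoattractant genes Ccl2 and Ccl7 had 7 each, with the same summed width of 22.6 kb, so these may be the same regions. A region held 100.0% of Ccl2, and 0 overlapped Ccl7. Ccl3, a ligand of Ccr1, had 6 with 49.9 kb in all. The ligand genes of Cxcr4 and Cx3cr1 were poor by comparison. Cxcl12, which stromal cells produce, had 0 regions, with the closest midpoint 250.2 kb away, and Cx3cl1 had 1 of 1.1 kb. C3 and Hc, the genes of complement factors C3 and C5, had 5 each. No region overlapped Hc. A region covered the start of C3, and 1.4% of that gene lay inside it. All 20 genes of chemoattractant receptor signalling were overlapped by a region, against 50.6% of all protein-coding genes, and their median was 6. Gene length was not matched here, and in the long gene Dock2 the regions held 1.8% of the gene. Plcb3, encoding a phospholipase C beta, had 11, the G protein subunit gene Gnai2 had 10 and Pik3cg, the catalytic subunit of phosphoinositide 3-kinase gamma, had 8. Rgs1, an inhibitor of Gi signalling, lay wholly inside a region and had 38.0 kb counted for it. Pik3r5, the regulatory subunit that pairs with Pik3cg, had 57.1 kb over 6 regions.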

How the data were processed

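MED1 ChIP-seq of RAW 264.7 cells (2 untreated and 2 LPS libraries) was analysed from 1 interval list of the whole series. The submitters' processing notes name Bowtie, SAMtools, MACS2 2.2.6 and mm10. How peaks were called, against which control and from which libraries is not stated there. The authors deposited a score of 0 in all 53764 lines, so it was not used. Starts and ends, another kind of value that the authors deposited, are printed 1-based. The 4 mitochondrial intervals were left out, and intervals that abut were joined.

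Genes and promoter sequences came from RefSeq (GRCm38.p6). A start was listed for 17492 of 21887 genes. Exons were not used here, so exons and introns are not told apart. Counting was tested on simulated regions placed past the ends of genes far from each other, well within the window. The number placed was recovered for 200 of 200 genes. Overlap with a gene, coverage of starts, regions shared by neighbours and the edge of the window were not simulated. No depth was known, so no precision per library could be computed, and no test between groups was made. Alternatives covered the choice of calls, window, overlap, nearest gene and stitching. The planned count of regions at the start is given beside that of starts inside a region. All 9 receptors were named, with up to 4 neighbours each and, per related list, the 3 genes with the most regions and up to 3 with none (more where tied). Others were chosen after their values were seen. A gene of the chemokine receptor list is not reported here. Members and lists were chosen with earlier results of these data known. Python 3.11.15, numpy 2.4.6, pandas 2.3.3 and matplotlib 3.10.9 were used.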

Additional observations from a re-analysis of the deposited data

How the results depend on the processing

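Unjoined intervals gave a median of 16 per receptor gene (5 for all genes). Leaving out regions of 1 interval left 4 receptors overlapped (43.1% of all genes) and 1 with a midpoint within 1 kb of the start (33.2%). A window of 10 kb gave a median of 3 regions and 11.1 kb (1 and 1.49 kb for all genes), and one of 100 kb a median of 10 regions (4 for all). Counting a region only for its nearest gene gave a median of 2 regions and 11.1 kb (0 for all genes). A start window of 2.5 kb, or any overlap with the start, gave 6 receptors (45.2% and 42.8% of all genes). Ranking clusters by number of regions left 2 overlapped (6.08% of all genes). The number of receptors with a region was 8 or 9 under every alternative run, while the share of all genes ranged from 48.7% (nearest gene only) to 77.1% (100 kb). Counts for single receptors moved by more than 1.5 times for 8 of the 9 with the 10 kb window, for 8 with nearest genes only, for 0 with any overlap of the window and for 1 with merging within 500 bp. No paired analysis was possible because the list names no library, and leaving out libraries was not possible for the same reason. Depth is unknown, so absence of a region, as at Ccr2 and Fpr2, does not show absence of MED1.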
